A study of Mus musculus with 51 samples.

Results

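The genes of the proteasome were followed through CD8+ T cells sorted from AT3-OVA mouse mammary tumors and from spleens. Members were the rows of the 2 deposited tables whose mouse gene symbol begins with Psm, then a letter from a to g and a number, without pseudogene symbols. The untreated table held 45 such rows of 10560 genes and the table of tumors under immune checkpoint blockade (ICB) held 47 of 13458, with 45 in both. Psma5 and Psmg3 were in the ICB table only. One row, Psmc3ip, matches by name but encodes a recombination cofactor and not a proteasome subunit, which leaves 44 and 46 proteasome genes. Psmb8, Psmb9, Psmb10, Psme1 and Psme2, the 5 genes of the immunoproteasome and its activator, were set apart from the others.

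AT3-OVA cells derive from a mouse mammary carcinoma and express ovalbumin, used as a model antigen. Tumor CD8+ cells were divided by CD103, an integrin subunit that binds E-cadherin, and CD69, a surface protein that keeps T cells in tissue, into CD103+CD69+ (DP), CD103-CD69+ (SP) and CD103-CD69- (DN). Untreated tumors gave 3, 4, 3 and 3 DP libraries at weeks 1, 2, 4 and 6, 3, 3, 2 and 3 SP libraries, and 2, 3, 3 and 2 DN libraries. From control spleens came 9 libraries, 3 for each of the sorted subsets that the labels name naive, CM and EM. Tumors on day 40 under ICB gave 3 DP, 3 SP and 2 DN libraries, which makes 51 libraries in all. The labels do not give the strain, sex or age of the mice, the ICB agents, or whether a library is 1 animal or a pool, so p-values measure only the spread between these samples. Cells were sorted on CD8, but a sort can carry other cells. In bulk samples such as these, fewer cells of a type and less RNA per cell cannot be told apart.

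The proteasome is the protease that destroys ubiquitin-tagged proteins. Its 20S core is a barrel of alpha rings around beta rings, and the catalytic sites lie on Psmb5, Psmb6 and Psmb7. The 19S cap, made of Psmc ATPases and Psmd subunits, binds ubiquitinated proteins, unfolds them and feeds them into the barrel. Interferon gamma induces Psmb8 (LMP7), Psmb9 (LMP2) and Psmb10 (MECL-1), which take the places of Psmb5, Psmb6 and Psmb7 in newly built cores, and lymphocytes carry such immunoproteasomes even at rest. Psme1 and Psme2 form the PA28 ring, an activator that opens the barrel without ubiquitin. The peptides made in this way supply MHC class I molecules.

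Psmb8 and Psmb9 lie beside the peptide transporter genes in the MHC on chromosome 17 of GRCm38, at 34197721-34201454 on the plus strand and 34181987-34187764 on the minus strand. Psmb10 is at 105935735-105938444 on the minus strand of chromosome 8. Psme1 and Psme2 are close together on chromosome 14, at 55578123-55581529 (plus) and 55587441-55591113 (minus). The Psmb9 gene model shares 212 bases with Tap1, which runs the opposite way. The shared bases lie at the 5′ ends of both models, while the assay reads near the 3′ end. Antisense genes overlap Psmb8 (Gm20496) and Psmb10 (Gm16156), and the strand setting of the authors' counting is not given in the sources used here. Reads of Psmb8 and Psmb10 may therefore be mixed with those of the antisense genes.

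Promoter sequences of some inducible subunits and of some that they replace are given as examples of the regulatory letters. The windows of Psmb10 and Psme2, which have no match to the patterns below, are not printed. RefSeq promoters on GRCm38.p6 were matched to 40 of the 47 members, and each runs from 250 bases before to 50 bases after the start of transcription, 5′ to 3′ on the gene's strand. Capitals mark matches, on either strand, to a pattern resembling the interferon-stimulated response element (ISRE), to TTCNNNGAA (resembling the gamma-activated site) or to TGACNNNGC (resembling the antioxidant response element, related to the sites of the factor Nfe2l1 that raises proteasome genes). The Psmb8 window (chr17:34197945-34198244) has a TTCNNNGAA match at -97 from the start base:
Psmb8: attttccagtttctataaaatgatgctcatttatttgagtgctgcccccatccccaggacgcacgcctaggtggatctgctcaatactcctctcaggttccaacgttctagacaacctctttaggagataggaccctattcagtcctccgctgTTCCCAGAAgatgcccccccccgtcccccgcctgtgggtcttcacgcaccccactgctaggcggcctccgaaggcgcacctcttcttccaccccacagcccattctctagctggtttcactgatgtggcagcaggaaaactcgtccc
The Psmb9 window (chr17:34187281-34187580) has no match to any of the 3:
Psmb9: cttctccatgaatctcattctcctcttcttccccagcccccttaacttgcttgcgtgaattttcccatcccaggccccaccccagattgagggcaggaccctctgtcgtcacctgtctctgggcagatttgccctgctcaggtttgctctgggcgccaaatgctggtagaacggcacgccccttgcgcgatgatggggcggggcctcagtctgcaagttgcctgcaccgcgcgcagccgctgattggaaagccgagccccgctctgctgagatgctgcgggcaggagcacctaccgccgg
The window of Psmb5 (chr14:54617946-54618245), which Psmb8 replaces, has a TGACNNNGC match at -47:
Psmb5: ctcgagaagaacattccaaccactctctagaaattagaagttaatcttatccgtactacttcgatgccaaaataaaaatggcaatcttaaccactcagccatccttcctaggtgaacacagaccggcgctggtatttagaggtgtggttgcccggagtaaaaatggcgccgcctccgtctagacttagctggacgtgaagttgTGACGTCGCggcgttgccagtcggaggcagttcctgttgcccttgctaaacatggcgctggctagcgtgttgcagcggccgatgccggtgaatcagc
The window of Psmb6 (chr11:70525107-70525406), which Psmb9 replaces, has a TGACNNNGC match at -9:
Psmb6: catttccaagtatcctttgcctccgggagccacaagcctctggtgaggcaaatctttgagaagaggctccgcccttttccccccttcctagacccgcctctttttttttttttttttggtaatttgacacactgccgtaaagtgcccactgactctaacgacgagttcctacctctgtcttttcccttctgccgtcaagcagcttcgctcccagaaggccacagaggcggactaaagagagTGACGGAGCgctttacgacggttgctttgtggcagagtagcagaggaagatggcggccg
The Psme1 window (chr14:55578244-55578543) has an ISRE-like match, read on the opposite strand, at 9 bases past the start base:
Psme1: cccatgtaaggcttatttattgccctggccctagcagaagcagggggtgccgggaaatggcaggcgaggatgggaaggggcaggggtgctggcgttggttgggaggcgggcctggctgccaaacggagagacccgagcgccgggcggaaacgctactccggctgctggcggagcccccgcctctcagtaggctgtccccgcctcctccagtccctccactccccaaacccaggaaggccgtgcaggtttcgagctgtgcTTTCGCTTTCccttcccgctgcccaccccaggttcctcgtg
Among the 43 member promoters, TGACNNNGC was in 0 of 6 immunoproteasome windows and in 6 of 37 others (16.2%), beside 12.4% of all 32851 promoters. The 6 include overlapping windows of Psme2, so they are not 6 separate genes. The ISRE-like pattern was in 1 of 6 and in 4 of 37, beside 3.44% of all promoters, and TTCNNNGAA in 1 of 6 and 2 of 37, beside 8.3%. The windows of Psmb8, Psmb9 and Psme1 lie wholly inside the gene models given above, while those of Psmb5 and Psmb6 reach outside their models. The printed windows are therefore not placed alike. A match describes letters in these windows and is not a measured binding site.

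Values were deposited by the authors as normalized numbers and read here as log2. The mean of a gene over the untreated libraries could be as low as -28.0 or as high as 39.4, so a level is no measure of abundance there, and every comparison below is a difference within 1 gene or, where stated, a change in a difference between 2 genes. Group means of members spread less than those of genes at large: the median range of the 15 group means was 0.61 log2 units for the 45 rows and 1.14 for all genes. Members also varied less within groups, with a lower median SD than all genes in each of the 15, and the part of this in the ranges was not tested. The median range was 0.87 for the immunoproteasome set, 0.71 for the constitutive beta subunits, 0.51 for the alpha subunits, 0.49 for the 19S ATPases, 0.61 for the 14 other Psmd rows, which include assembly chaperones of the 19S base, and 1.22 for the 3 Psmg chaperones of the core. The heat map of group means shows them by gene.

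**Figure D1:**
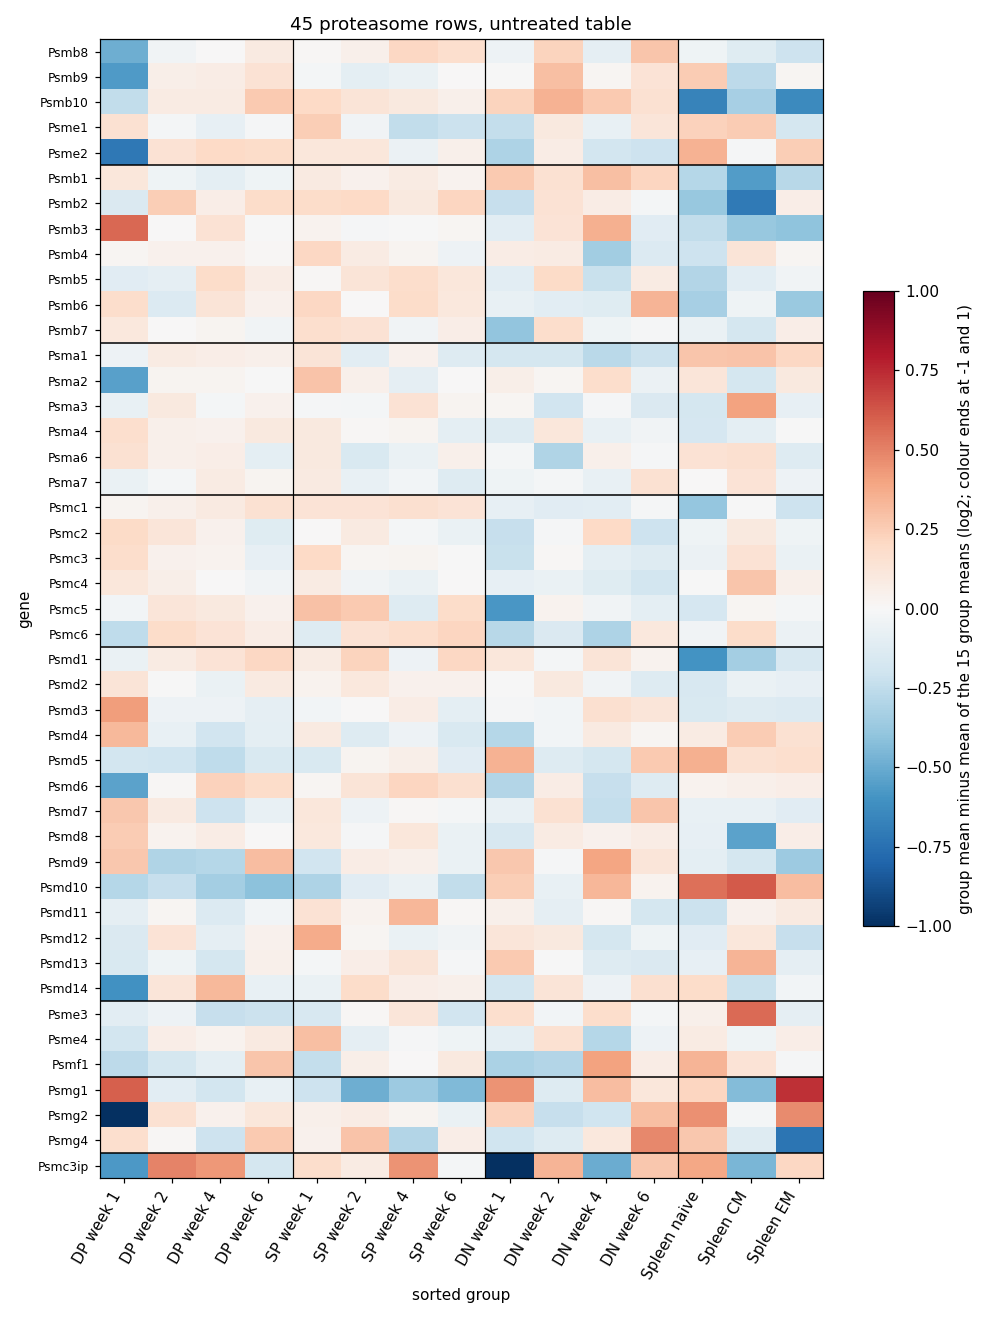
Group means of the 45 rows (vertical axis, by class from immunoproteasome at the top to Psmc3ip at the bottom) in the 15 untreated groups (horizontal axis), each minus the mean of that gene's 15 group means in log2 units; black lines divide the classes and the tumor subsets. The DP week 1 column holds the lowest mean of 7 rows, Psmb8, Psmb9 and Psme2 among them, and the highest of 6; spleen naive is lowest for 8, DN week 1 lowest for 7 and spleen CM highest for 8.

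The 3 DP libraries of week 1 stood apart from the other untreated libraries in many genes, members and others alike. Their median within-group SD was 0.29 over all genes and 0.22 over members, the largest of the 15 groups in both. The mean deviation of 7 CD8 T cell markers lay between -0.89 and -0.77 in these 3 libraries and between 0.03 and 0.11 at week 6. That of 5 epithelial markers, among them Krt8 and Epcam, lay between 1.96 and 3.25 at week 1 and between -0.54 and 0.20 at week 6. Epithelial markers were as high in the SP libraries of week 1 (2.07 to 2.52), where the CD8 T cell markers lay between -0.14 and -0.06. The values carry no true zero, so no marker can be called absent, and the part these markers had in the results below was not tested.

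Psmb8, Psmb9 and Psme2 had their lowest mean of all 15 groups in DP cells at week 1. Psmb8 was at 2.00, 1.66 and 2.14 in the 3 DP libraries of week 1, at 2.42, 2.41, 2.32 and 2.40 at week 2, at 2.31, 2.41 and 2.57 at week 4 and at 2.50, 2.46 and 2.58 at week 6. All 3 week 1 values lay under those of the other 31 tumor libraries, of which the lowest was 2.23, and 1 of the 3 overlapped the spleen libraries (2.12 to 2.46). Psmb9 was at 7.69, 7.18 and 7.5 at week 1, and at 8.15, 8.12 and 8.24 at week 6. Its week 2 values were 8.07, 8.31, 8.18 and 7.77 and its week 4 values 8.13, 8.18 and 7.97, so the week 1 libraries again lay under all the other tumor libraries, which began at 7.72. In both genes week 2 was already close to week 6.

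Psme2, the beta subunit of PA28, had values of 7.93, 8.23 and 7.75 in DP week 1 libraries. They were 8.79, 9.0, 8.63 and 8.89 at week 2, 8.97, 8.80 and 8.87 at week 4, and 8.90, 8.89 and 8.81 at week 6. The week 1 libraries were all under the later DP ones, while 1 of them overlapped the lowest DN library (8.12, week 6). Psmb10 was at 7.07, 7.42 and 6.73 at week 1 and at 7.45, 7.58 and 7.70 at week 6, with no overlap. Psme1, the partner of Psme2, did not share this pattern: it was at 3.47, 3.42 and 2.86 at week 1 and at 3.14, 2.99 and 3.13 at week 6, with the groups overlapping.

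**Figure D2:**
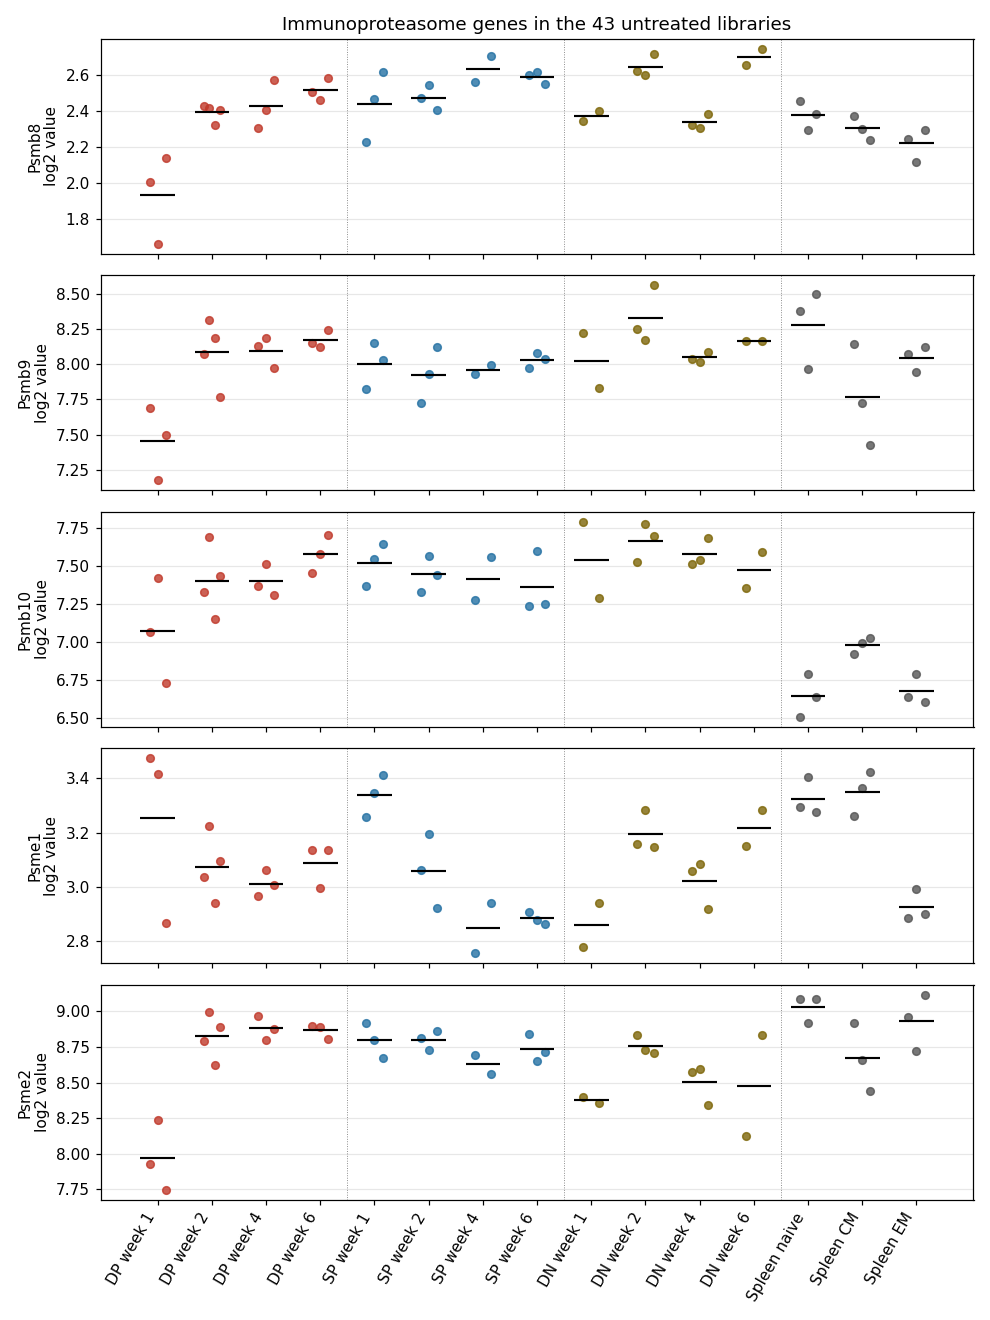
Log2 values (vertical axes, each with its own range) of the 5 immunoproteasome genes in every untreated library (points) with the group mean (bar), by group on the horizontal axis; red is DP, blue SP, brown DN and grey spleen. In Psmb8, Psmb9 and Psme2 the DP week 1 group has the lowest mean, with single spleen or DN points inside its range, in Psmb10 the 9 spleen points lie under all tumor points outside DP week 1, and Psme1 shows neither pattern.

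From week 1 to week 6 in DP cells 4 of the 5 immunoproteasome genes rose, in limma's moderated test with Benjamini-Hochberg adjustment over all 10560 genes. Psme2 rose by 0.90 (SE 0.17, 3 against 3 libraries, adjusted p = 0.000685), Psmb9 by 0.72 (SE 0.19, adjusted p = 0.0102), Psmb8 by 0.58 (SE 0.13, adjusted p = 0.00202) and Psmb10 by 0.51 (SE 0.18, adjusted p = 0.0446). Psme1 differed by -0.16 (SE 0.14, adjusted p = 0.414) and was not called. Of all genes 25% were called in this comparison in either direction, and 15.6% as higher. The replaced subunits Psmb5, Psmb6 and Psmb7 differed by 0.19, -0.13 and -0.14 (SE 0.18, 0.11 and 0.19) and none was called.

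Over all 45 rows the share called was close to the background. Of these, 9 were higher and 4 lower at week 6, 28.9% of the 45 beside the 25% of all genes, and the median difference was 0.08 beside 0.07 for all genes. Libraries of the 2 weeks did not overlap for 16 rows, 10 higher and 6 lower at week 6, where 42.8% of all genes did not overlap. Outside the immunoproteasome set 5 rows rose and 4 fell among 40, or 22.5%.

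The largest rise was that of Psmg2, a chaperone that pairs with Psmg1 to assemble alpha rings. Psmg2 was at 5.47, 4.84 and 5.20 in DP cells at week 1 and at 6.68, 6.98 and 6.40 at week 6, a rise of 1.52 (SE 0.24, adjusted p = 9.51e-05). The 3 week 1 libraries lay under all 40 other untreated libraries, which began at 6.0. Psmg1 moved the opposite way: it was at 4.17, 4.41 and 4.53 at week 1 and at 3.87, 3.51 and 3.70 at week 6, and fell by 0.67 (SE 0.19, adjusted p = 0.0122). The third Psmg gene in the table, Psmg4, differed by 0.09 (SE 0.30) and was not called.

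In the 19S cap Psmd6 rose from 4.32, 4.45 and 4.18 at week 1 to 5.08, 5.09 and 4.94 at week 6, by 0.72 (SE 0.13, adjusted p = 0.000412), and its week 1 libraries lay under all 40 others. Psmd14, the deubiquitinase of the cap, rose by 0.54 (SE 0.15, adjusted p = 0.0116), from 2.01, 2.25 and 1.82 to 2.67, 2.6 and 2.42. Psmd3 fell by 0.51 (adjusted p = 0.0337) and Psmd4, a ubiquitin receptor, by 0.42 (adjusted p = 0.0356). The Psmd3 call was lost without any 1 of 4 of the 6 libraries (adjusted p up to 0.152) and the Psmd4 call without any 1 of 5 (adjusted p up to 0.149). Of the 14 non-ATPase rows 2 rose and 2 fell, and of the 6 ATPases none was called. In the core Psma2 rose by 0.53 (adjusted p = 0.0354) and Psmb3 fell by 0.58 (SE 0.13, adjusted p = 0.00265). Psmb3 was at 4.16, 4.06 and 4.13 at week 1 and at 3.61, 3.47 and 3.55 at week 6. Psmf1, the inhibitor PI31, rose by 0.53 (adjusted p = 0.0395), with the libraries of the 2 weeks overlapping.

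The direction of the balance rested on how libraries were centred. Rescaling each library to a common median removed a shift of 0.11 from all differences between these weeks, and both median rescaling and quantile normalization gave 6 rises and 7 falls in place of 9 and 4, with 10 of the 13 rows shared. All 4 falls kept their calls under both. The rows lost were rises, Psmb10 among them and the others from Psmd14, Psma2 and Psmf1. Relative to the rescaled medians Psme2 was higher by 0.79, Psmb9 by 0.61 and Psmb8 by 0.47, all still called, and Psmb10 by 0.40 (adjusted p = 0.0982), no longer called. Psmb10 also lost its call without any 1 of 5 of the 6 libraries (adjusted p up to 0.211), and Psmb9 lost it without the second week 1 library (adjusted p = 0.0509). A fit on the 6 libraries alone called only Psmg2 (adjusted p = 0.0235), with adjusted p = 0.0587 for Psme2 and 0.216 for Psmb8. Leaving out the second week 6 library left 7 of the 13 rows called.

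The difference lay between week 1 and the later weeks. Between week 2 and week 6 of DP cells 0 of the 45 rows were called, where 0.246% of all genes were. In limma's test 3 rows had an unadjusted p under 0.05, beside 1401 of 10560 genes. The 5 immunoproteasome genes differed by 0.02 to 0.18 between those weeks. In SP cells 0 of 45 rows were called from week 1 to week 6, where 2.72% of all genes were, and 1 row was called after quantile normalization. Here 4 rows had an unadjusted p under 0.05 in limma's test, beside 1789 of 10560 genes. The nearest was Psme1, which was at 3.26, 3.35 and 3.41 at week 1 and at 2.91, 2.88 and 2.86 at week 6 (difference -0.46, SE 0.14, adjusted p = 0.0769). The other 4 immunoproteasome genes differed by -0.16 to 0.15 in SP cells. In DN cells 1 row of 45 was called where 5.79% of all genes were, and it was Psmc3ip, the recombination cofactor (1.39 higher at week 6, SE 0.37, 2 against 2 libraries, adjusted p = 0.0316); median rescaling, which removes 0.11 here too, left none.

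The change from week 1 to week 6 differed between DP and SP in 4 members, by the test of the difference itself (8.12% of all genes were called). Psmg2 changed by 1.64 more in DP than in SP (SE 0.33, adjusted p = 0.00449) and Psme2 by 0.96 more (SE 0.24, adjusted p = 0.0180). Psme4, the activator PA200, and Psmd12, a subunit of the lid, changed by 0.61 and 0.59 more (adjusted p = 0.0497 and 0.0407). For Psmb8, Psmb9 and Psmb10 the differences of 0.43, 0.69 and 0.66 did not pass (adjusted p = 0.145, 0.126 and 0.115).

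**Figure D3:**
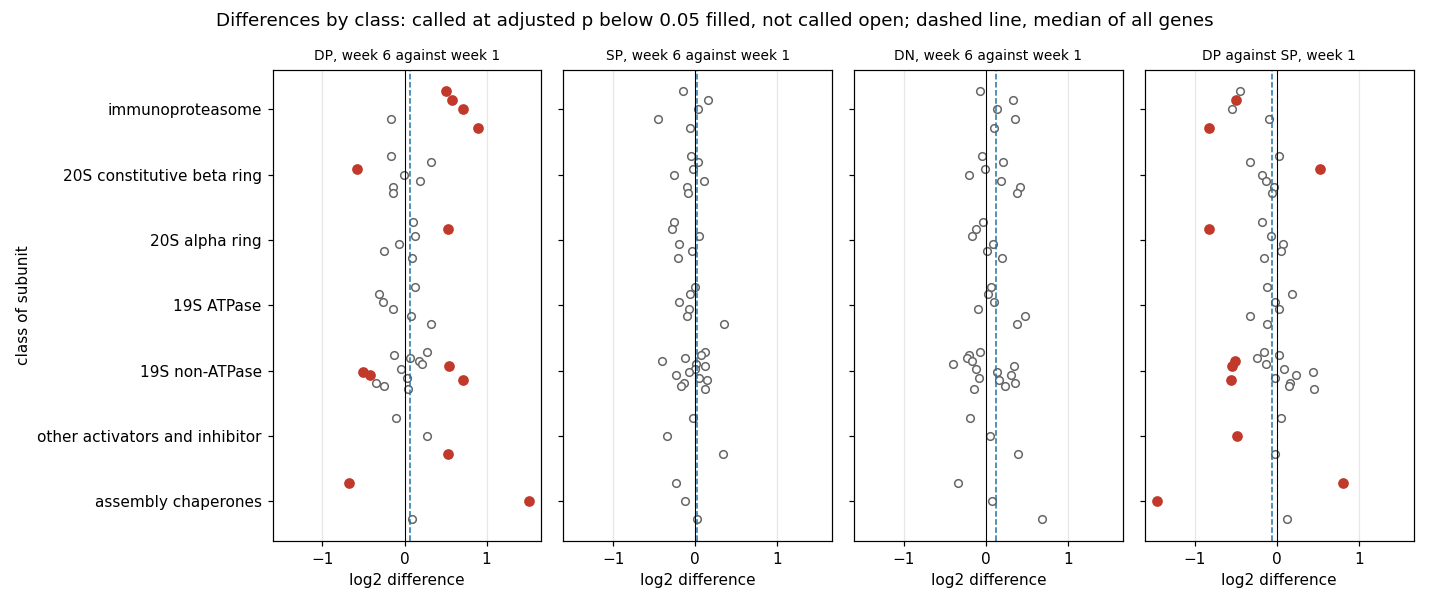
Log2 difference (horizontal axis) of every subunit and chaperone row by class (vertical axis) in 4 comparisons; filled points passed limma's test at an adjusted p under 0.05, open points did not, and the dashed line is the median of all genes. In DP cells between weeks 1 and 6 the 4 called immunoproteasome genes lie to the right and Psme1 to the left, no point is filled in the SP or DN panels, and 2 immunoproteasome points are filled on the left for DP against SP at week 1.

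At week 1 Psmb8 and Psme2, 2 of the 5 immunoproteasome genes, were also lower in DP than in SP cells of the same week. Psmb8 was at 2.23, 2.46 and 2.62 in SP and lower in DP (difference -0.50, SE 0.13, adjusted p = 0.00910), a call lost without the third SP library (adjusted p = 0.0534). Psme2 was at 8.92, 8.80 and 8.68 in SP and lower in DP (difference -0.83, SE 0.17, adjusted p = 0.00233). Psmb9 and Psmb10 differed by -0.55 and -0.45 and did not pass (adjusted p = 0.0560 and 0.0931). Psme1 differed by -0.09. These SEs rest on a spread shared by all 15 untreated groups, while DP week 1 had the largest median within-group SD. No fit of the compared groups alone was made here.

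Of the 45 rows 2 were higher and 8 lower in DP than in SP at week 1, where 17.4% of all genes were called in either direction and 11.5% as lower. Psmg2 (-1.46), Psme2 (-0.83), Psma2 (-0.82), Psmd6 (-0.55) and Psmd14 (-0.54) differed most among the lower ones, and Psmg1 (0.81) and Psmb3 (0.53) were the 2 higher. Beside them 6 of 7 CD8 T cell markers (median -0.81), 6 of 8 proliferation genes (median -0.90), 8 of 10 class I genes (median -0.57) and 5 of 7 interferon-stimulated genes (median -0.97) were lower in DP, and their part was not tested. Libraries did not overlap for 14 rows, 3 higher and 11 lower, beside 36.2% of all genes. Between DP and SP 0 of the 45 rows were called by limma at week 2, 4 or 6, where 0.00%, 0.142% and 0.00% of all genes were called. In the same test 2, 2 and 0 rows had an unadjusted p under 0.05, beside 677, 1355 and 729 of 10560 genes. The difference between DP and SP at week 1 departed from its mean over the later weeks for 9 rows, 8 of them more negative at week 1 (14.7% of all genes were called), Psme2 by -0.96 (adjusted p = 0.00307) and Psmb9 by -0.69 (adjusted p = 0.0430) among them.

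Replacement of the constitutive catalytic subunits was read as the difference within a library between each inducible gene and its counterpart. Psmb9 minus Psmb6 lay between 2.37 and 3.08 in DP at week 1 and between 3.5 and 3.59 at week 6, a change of 0.85 with no overlap. Psmb10 minus Psmb7 lay between 5.02 and 5.85 at week 1 and between 5.97 and 6.07 at week 6, a change of 0.65 with no overlap. Psmb8 minus Psmb5 lay between -2.06 and -1.52 and between -1.59 and -1.26, a change of 0.39 with overlap. The exact two-sided permutation test gave p = 0.1, 0.1 and 0.2, and 3 libraries against 3 cannot go under 0.1. Over the 24 such comparisons made the smallest adjusted p was 0.471.

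**Figure D4:**
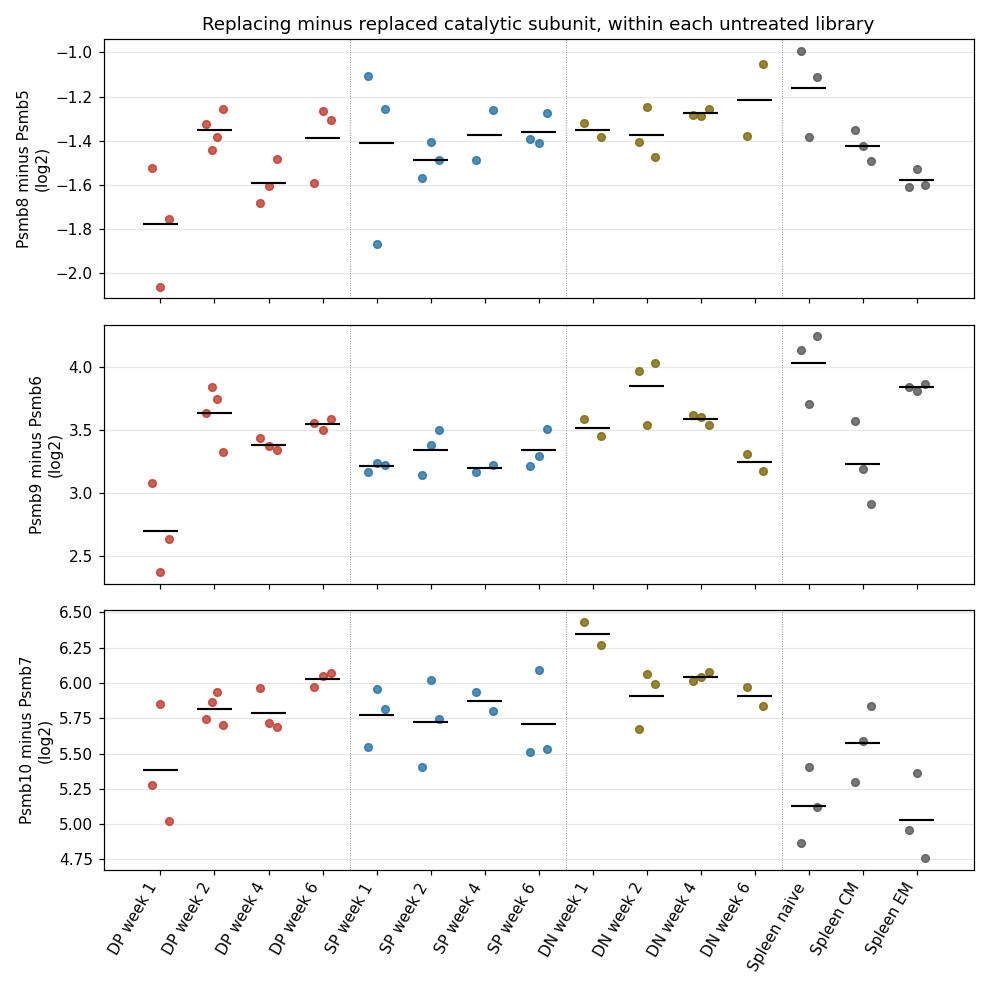
Difference within each untreated library (points; bar, group mean) between an inducible catalytic subunit and the one it replaces, in log2 units on the vertical axis, by group on the horizontal axis. DP week 1 has the lowest mean of the tumor groups in each panel, and in the lowest panel the naive and EM spleen groups lie lower still.

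The neighbours of the immunoproteasome in class I presentation and in the interferon response moved with the same libraries. Of 10 class I genes 7 rose and 1 fell in DP from week 1 to week 6 (median 0.56): B2m, the class I light chain, rose by 0.81 (adjusted p = 2.02e-05), the class I activator Nlrc5 by 0.83 (adjusted p = 0.000107), the heavy chains H2-K1 and H2-D1 by 0.58 and 0.54, and the transporter gene Tap1, which faces Psmb9, by 0.32 (adjusted p = 0.0245). Tap2 fell by 0.39 (adjusted p = 0.0412). Of 7 interferon-stimulated genes 4 rose and 1 fell (median 0.78), with Irf7 at 1.05 (adjusted p = 0.00102). These rises went with those of the T cell markers: 6 of 7 CD8 T cell genes rose (median 1.00), Cd8a by 1.63, and 5 of 8 proliferation genes rose (median 0.79), while 4 of 5 epithelial genes fell (median -2.62).

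Other genes of the proteasome pathway had no called rise in the same comparison. Of 24 measured (assembly factors, ubiquitin genes, shuttles and the machinery that raises subunit genes when the proteasome is inhibited) none rose and 3 fell in DP from week 1 to week 6. Of all genes 25% were called in either direction, and 989 of 10560 as lower. The 3 that fell were Nfe2l1, the transcription factor of that response, (-0.81, adjusted p = 0.00102), its protease Ddi2 (-0.98, adjusted p = 0.00178) and the shuttle Ubqln1 (-0.58, adjusted p = 0.00364). The median of the 24 was -0.10 beside 0.07 for all genes, but the groups within them differed. Assembly and associated genes had a median of 0.19, with 8 of 9 above 0. The medians were -0.17 for the response to inhibition, -0.33 for the shuttles and -0.36 for the ubiquitin genes, all 4 of which lay below 0.

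Across the untreated weeks DP and SP cells differed in 1 of the 45 rows, where 3.48% of all genes were called. Psmg1 was 0.43 higher in DP (SE 0.10, 13 against 11 libraries, adjusted p = 0.0122), and without week 1 by 0.31 (adjusted p = 0.185), so the call rested on that week. The 5 immunoproteasome genes differed by -0.21 to 0.07.

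Against DN cells 1 row was higher and 5 lower in DP, 13.3% of 45 beside 19.5% of all genes. Psmd10, an assembly chaperone of the 19S base also called gankyrin, was lowest (-0.45, SE 0.15, adjusted p = 0.0331), followed by Psmd5 (-0.27), Psmb1 (-0.25), Psme3 (-0.23) and Psmb8 (-0.19, adjusted p = 0.0421), and Psmc6 was higher by 0.19 (adjusted p = 0.0380). This split turned with the scaling: quantile normalization gave 7 higher and 0 lower with 1 row shared, and median rescaling 5 higher and 3 lower. Psmb8 lost its call without week 1 (-0.11, adjusted p = 0.285), as did Psmd5 (-0.19, adjusted p = 0.208) and Psmd10 (-0.43, adjusted p = 0.0656), while Psmc6, Psmb1 and Psme3 kept theirs. Of the 23 fits that left out 1 library, 15 lost the call of Psmb8, 11 Psmd5, 10 Psmc6 and 5 Psmd10. The calls of Psmb1 and Psme3 were kept in all 23. A fit of the compared groups alone kept only Psme3. The library codes in the labels were divided here after code 42 into an earlier and a later run. The labels do not state such runs, and other gaps in the codes were not used. All 10 DN libraries fell in the later run, as did 2 of 13 DP and 1 of 11 SP libraries. With that run as a term in the fit no row was called. SP exceeded DN in 3 rows and fell short in 1, 8.89% of the rows beside 19.4% of all genes. Psmc5 (0.32, adjusted p = 0.0169), Psmd6 (0.28, adjusted p = 0.00917) and Psmc6 (0.26, adjusted p = 0.00930) were higher and Psmg1 lower (-0.56, SE 0.10, adjusted p = 0.000737). The Psmc5 call was lost without week 1 (0.14, adjusted p = 0.393), while Psmd6, Psmc6 and Psmg1 kept theirs. Again none was called with the run of codes as a term.

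Psmb10 separated tumor from spleen. In the 9 spleen libraries it lay between 6.51 and 7.03, and in the 31 tumor libraries outside DP week 1 between 7.15 and 7.79, with no overlap. Of the 3 DP week 1 libraries 6.73 fell within the spleen range, and 7.07 and 7.42 lay above it. Against EM cells, which were at 6.64, 6.78 and 6.60, the mean of the 12 tumor groups was 0.78 higher (SE 0.13, adjusted p = 0.000218), and 0.80 higher without week 1 (adjusted p = 0.000168). Psmb8, Psmb9, Psme1 and Psme2 differed by 0.23, -0.02, 0.15 and -0.30 and were not called.

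Among all members 7 were higher and 2 lower in tumor than in spleen EM cells, 20% of the rows beside 28.6% of all genes. The core subunits Psmb3 (0.49, adjusted p = 0.000764) and Psmb6 (0.44, adjusted p = 0.000590) and the chaperone Psmg4 (0.78, adjusted p = 0.0122) were higher, with Psmd9 (0.42, adjusted p = 0.0315) and Psmb1 (0.37, adjusted p = 0.0100). Psmg1 (-0.77, adjusted p = 0.000338) and Psmg2 (-0.55, adjusted p = 0.0230) were lower, Psmg2 not without week 1 (-0.45, adjusted p = 0.0612). The 24 other pathway genes had 7 higher and 3 lower, among them Ubb (0.68 higher), which encodes ubiquitin. Leaving out the first or the third EM library left 4 members called. Tissue, sort and gate differ between these groups and cannot be told apart; 4 of 5 epithelial genes, 4 of 9 myeloid genes and 6 of 7 interferon-stimulated genes were also higher in tumor, and their part was not tested.

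Within the spleen the immunoproteasome core genes were not called between memory and naive cells. Psmb8 was still lower in every EM than in any naive library, and Psmb10 higher in every CM than in any naive library. Psmb9 overlapped naive cells in both, Psmb10 in EM and Psmb8 in CM. The share of all genes without overlap was not counted for the spleen. From naive to EM 1 row was higher and 2 lower, 6.67% of the rows beside 24.6% of all genes. Psmd1, the largest 19S subunit, was 0.44 higher (adjusted p = 0.0176), Psmg4 lower (difference -1.0, adjusted p = 0.0187) and Psme1 lower (difference -0.40, SE 0.14, adjusted p = 0.0386). Psme1 was at 3.29, 3.40 and 3.28 in naive cells and at 2.88, 2.99 and 2.90 in EM cells, and its call was lost without any 1 of 5 of the 6 libraries. From naive to CM 3 rows were higher and 1 lower, 8.89% beside 18.8%. Psma3 (0.58, adjusted p = 0.00727), Psme3 (0.52, adjusted p = 0.00534) and Psmd13 (0.42, adjusted p = 0.0409) were higher and Psmg1 lower (-0.64, adjusted p = 0.0191). The Psmd13 call was lost without any 1 of the 6 libraries (adjusted p up to 0.115) and after quantile normalization (adjusted p = 0.109), and the Psmg1 call without any 1 of 4 (adjusted p up to 0.0692). Leaving out 1 library gave 0 to 5 called rows for EM, 0 of them without the first or the third EM library, and 2 to 6 for CM. Psmb9 was at 8.14, 7.73 and 7.43 in CM and at 8.37, 7.97 and 8.50 in naive cells, which overlapped (difference -0.51, adjusted p = 0.0692).

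Under ICB on day 40 none of the 47 members was called between subsets, where 0.0372% of all genes were called for DP against SP, 7.49% for DP against DN and 3.83% for SP against DN. At an unadjusted p under 0.05 in limma's test there were 1, 3 and 5 of the 47 members, beside 1733, 3663 and 2998 of 13458 genes. With design-based degrees of freedom 5, 11 and 12 members were called, and the counts over all genes under that setting are not given here. Psmb8 came nearest: it was at 12.41, 12.42 and 12.44 in DP, at 12.41, 12.37 and 12.39 in SP and at 12.12 and 12.10 in DN. DP and SP overlapped, and both lay above both DN libraries. The differences from DN were 0.31 in DP (SE 0.06, adjusted p = 0.0532) and 0.28 in SP (SE 0.06, adjusted p = 0.0884). Psmb8 was nearest by adjusted p and not by size. Outside the immunoproteasome set Psma5, Psmd10 and Psmd5 were higher in DP than in DN by 0.63, 0.45 and 0.43, also uncalled. Psmb9 was at 10.52, 10.48 and 10.35 in DP and 10.19 and 10.23 in DN (difference 0.24, SE 0.10, adjusted p = 0.219), and Psmb10 differed by 0.24, Psme2 by 0.17 and Psme1 by -0.15.

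In the same comparison 7 of 8 interferon-stimulated genes and 4 of 10 class I genes were higher in DP than in DN, B2m, H2-D1 and Tapbp among the latter. Of the 11 myeloid markers 8 were higher, with a median of 2.19, and their part was not tested. Of the counterparts, Psmb5 and Psmb7 differed by 0.16 and -0.24 between DP and DN, and neither was called. Without the third DP library 3 members were called, all higher. This table was normalized apart from the untreated one, so no level was compared between them and the effect of ICB was not tested.

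**Figure D5:**
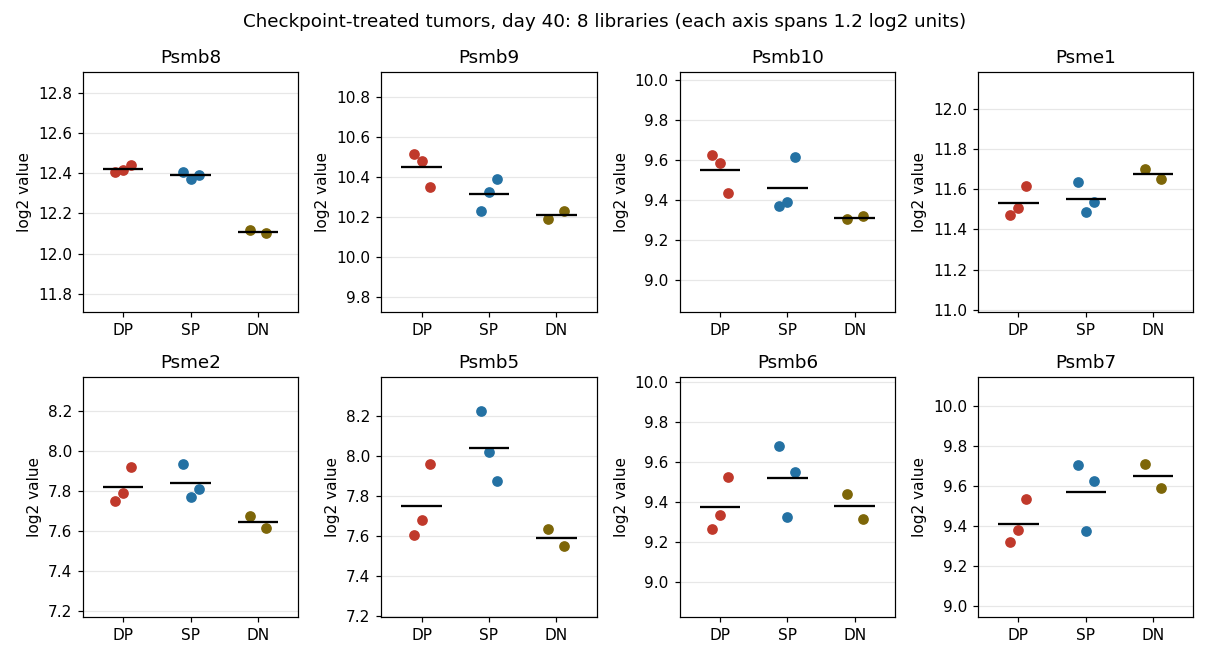
Log2 values (vertical axis, spanning the same distance in each panel) of the 5 immunoproteasome genes and the 3 replaced catalytic subunits in the 8 ICB libraries (points; bar, group mean) of the DP, SP and DN subsets (horizontal axis). The 6 DP and SP points for Psmb8 lie above the 2 DN points, as do the DP points for Psmb9, Psmb10 and Psme2, while those for Psme1 lie below.

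In the deposited values most pairs of members shared little variation. These values spanned 32 of 42 possible directions after each gene was centred. Variation shared by members may have been removed before deposit, which was not tested. Over the 43 untreated libraries the median Pearson correlation of the 990 pairs of members was 0.03, beside 0.02 for all pairs of genes, as a description of libraries that share groups, normalization and preparation. Single pairs of members ran from -0.74 to 0.72. Within the immunoproteasome set Psmb8 and Psmb9 had 0.61, Psmb9 and Psme2 0.54 and Psmb8 and Psmb10 0.42, while Psme1 and Psme2, the partners in PA28, had 0.01. The 19S ATPases, which form 1 ring, had a median of 0.21 over 15 pairs, all of them above 0 (0.007 to 0.52). Over the 15 group means the genes most like the mean of Psmb8, Psmb9 and Psmb10 were Ifit2 (Pearson 0.90), Leng9 (0.86), Uba2 (0.86), Socs1 (0.85) and Adam19 (0.85), with Gm14212, Mrpl55, Gm12250, E2f4 and Bst2 next. Nlrc5 had 0.76 (rank 77 of the table), B2m 0.73 and Tap1 0.50, whereas Irf1 had -0.01 and Psme2 0.28.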

How the data were processed

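Per the labels' protocols, 10 ng of RNA from sorted cells entered QuantSeq 3' FWD preparation, which reads 1 site near each transcript's end. The submitters' processing notes list HISAT2, HTSeq and the mm10 build and give no tool version. The values are normalized and were deposited by the authors in 2 tables, read here as log2, the base being an inference; the method is not given in the sources used here. Counts were not analysed here, so depth per library is unknown.

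In each table limma 3.58.1 (R 4.3.3, statmod 1.5.0; trend and robust options) fitted group means to all genes and libraries, with Benjamini-Hochberg adjustment over the table; calls are at an adjusted p under 0.05. Pooled comparisons weighted weeks equally. Residuals spanned 18 of 28 directions in the untreated table and 2 of 5 in the ICB table, so degrees of freedom were multiplied, and variances divided, by 0.643 and 0.4. The fit was tested on simulated data. The members and gene lists were chosen with earlier results of these data known, so no p-value over the list is given. Named genes were the 5 immunoproteasome genes and their counterparts, and up to 5 called members in each direction with the largest difference. Psmf1, Psmd14, Psma2 and, under ICB, the members near the threshold or with large differences were named after their values were seen. Gene models came from GENCODE M21 and promoters from RefSeq, both on GRCm38. Alternatives were design-based degrees of freedom, median rescaling, quantile normalization, a filter on low values, fits of the compared groups alone, the replicate number or the run of library codes as a term, and leaving out week 1 or each library. Week 2 in place of week 1 for DP, tumor against EM without week 1, and all alternatives of the comparisons of DP with SP at week 1 and of their changes were chosen after seeing the data. For the comparisons of DP with SP at week 1 and of their changes, calls were not checked in fits of the compared groups alone. Same-numbered libraries were not taken as pairs, since the labels name no shared source. Their deviations did not correlate throughout, but that check pooled all weeks and spleen groups. It cannot show whether subsets of the same week shared a source. Some DP and SP libraries of the same week and number had neighbouring codes (18 and 19, 21 and 22 at week 1), and pairing within a week was not tested.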

Additional observations from a re-analysis of the deposited data

Results flagged for a closer look

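The change from week 1 to week 6 differed between DP and SP cells in 4 of the 45 members by limma's interaction test, where 8.12% of all genes were called. Psmg2 differed by 1.64 (adjusted p = 0.00449), Psme2 by 0.96 (adjusted p = 0.0180), Psme4 by 0.61 (adjusted p = 0.0497) and Psmd12 by 0.59 (adjusted p = 0.0407). For Psme4 and Psmd12 week 6 minus week 1 was 0.27 and 0.18 in DP and -0.34 and -0.41 in SP, none of which passed alone, and each of these 2 interactions lost its call in 10 of the 12 fits that left out 1 library.

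The difference between DP and SP cells at week 1 departed from its mean over the later weeks in 9 of the 45 members, where 14.7% of all genes were called. Psmg2 (-1.55, adjusted p = 0.000859), Psme2 (-0.96, adjusted p = 0.00307), Psma2 (-0.85, adjusted p = 0.0103), Psmb9 (-0.69, adjusted p = 0.0430), Psme4 (-0.60, adjusted p = 0.0145), Psmd12 (-0.57, adjusted p = 0.0118), Psmd14 (-0.57, adjusted p = 0.0308) and Psmd6 (-0.53, adjusted p = 0.0228) were more negative at week 1, and Psmb3 (0.49, adjusted p = 0.0335) was more positive. The Psmb9 call was lost in 15 of the 24 fits that left out 1 library. These 2 sets share the week 1 libraries and are not independent of each other.

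In the 4 DP libraries of week 2 the Psmb6 value of replicate 2, 4.47, met Dixon's criterion, which chance alone meets in about 1 of 20 groups. The others lay unusually close together, from 4.43 to 4.44, and the gap was smaller than the gene's median SD within groups, 0.074.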

How the results depend on the processing

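The limits are few replicates, an unknown depth, and residuals that span fewer directions than the design allows, so the number of called members depends on the degrees of freedom. With design-based degrees of freedom the count became 6 for DP against SP, 12 for DP against DN, 13 for SP against DN, 4 and 5 for the SP and DN weeks, 7 and 13 for spleen EM and CM against naive, 14 for tumor against EM, 10 for the change from week 1 to week 6, 15 for week 1 against the later weeks, and 5, 11 and 12 for the ICB comparisons of DP with SP, DP with DN and SP with DN. The counts over all genes under this and the other alternatives are not given here, so these member counts cannot be read as particular to the proteasome. The cause of each other difference below was not tested, beyond the smaller number of samples where some were left out.

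Fits of only the groups compared called 0 members for DP against SP, 1 for DP against DN, 1 for the DP weeks, 1 for spleen EM and 2 for spleen CM. Without week 1 DP against SP had 0, and with the run of library codes as a term DP and SP against DN had 0 each. Between weeks 2 and 6 of DP 0 members were called, and Psmg2 (-0.041) and Psmg1 (0.035) changed sign. Quantile normalization gave 1 for the SP weeks and 0 for the DN weeks, and median rescaling 0 for the DN weeks.

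Leaving out 1 library gave 1 to 2 called members for DP against SP (2 without DP week 1 replicate 3 or SP week 1 replicate 1), 2 to 7 for DP against DN, 3 to 6 for SP against DN, 7 to 11 for the DP weeks, 0 for the SP and DN weeks, 0 to 5 for spleen EM, 2 to 6 for spleen CM, 4 to 11 for tumor against EM, 2 to 6 for the change from week 1 to week 6, 5 to 10 for week 1 against the later weeks (5 without DP week 1 replicate 3), 8 to 12 for DP against SP at week 1, and 0 to 3 for DP against DN under ICB (3 without DP replicate 3). For DP against DN the count was 2 without DP week 6 replicate 2 and 3 without DN week 1 replicate 2, DN week 2 replicate 3, DN week 4 replicate 3, DN week 6 replicate 2 or DP week 4 replicate 2. For spleen EM it was 0 without EM replicate 1 or 3, 1 without naive replicate 1 or 3 and 5 without EM replicate 2, and for spleen CM 2 without CM replicate 2 or 3 or naive replicate 1 or 3. Psmb8, Psme2, Psmg2, Psmd6 and Psmb3 kept their calls between DP weeks 1 and 6 in all 6 such fits.

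The replicate block gave 1, 6, 4, 13, 0, 1, 4, 4 and 8 called members for DP against SP, DP against DN, SP against DN, the DP, SP and DN weeks, spleen EM, spleen CM and tumor against EM. With this block there were 4 for the change from week 1 to week 6, 9 for week 1 against the later weeks, 11 at week 1 and 0 under ICB. Deviations of libraries with the same number had a median correlation of 0.0025, beside -0.0022 for different numbers, in the untreated table. In the ICB table the 7 same-numbered pairs ran from -0.99 to 0.92 with a median of 0.36, so in neither table did every pair correlate. The untreated pairs joined libraries of all weeks and spleen groups, so their median cannot show whether subsets of the same week shared a source.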
